A study of Mus musculus with 15 samples.

Results

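The comparison described here set whole mouse lungs taken 21 days after bleomycin against whole lungs taken 7 days after bleomycin. It used 7 of the 15 libraries of the series, 3 at day 21 and 4 at day 7, chosen by the day in the sample titles, and all 17457 genes that passed a filter on low counts. All mice of both groups were C57BL/6, and the methods of the study describe adult males that received 5 U/kg bleomycin into the trachea. The other libraries were 4 at day 0 and 4 at day 14, and the fourth of day 0 was a control by its title while its treatment label named bleomycin. In every case polyadenylated RNA of the whole lung was sequenced. The labels name no transgene or knockout, and the whole organ was used, so that every cell type of the lung could contribute RNA. The study text speaks of biological replicates for the lungs of days 0, 7 and 14 and does not name day 21 there, and the labels do not say that each library was a separate animal. The p-values rest on the spread between libraries of the same day, estimated over all 15. It was larger than counting noise, with a chi-square of 14.0 to 30.4 per gene between pairs of day 7 and 40.3 to 62.9 between pairs of day 21, where counting noise alone gives about 1, but this does not tell separate animals from separate samples of 1 lung. The question is what fades and what is gained between the early and the late phase of the injury.

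Bleomycin damages DNA and kills alveolar epithelium, and in mice an early phase of inflammation and epithelial repair passes into a later phase of scarring. In the scar, fibroblasts lay down collagens, elastin and matricellular proteins that lysyl oxidases crosslink, and macrophages collect around them. Alveolar type 2 cells make surfactant and act as progenitors of the thin type 1 cells, and club and multiciliated cells line the airways.

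Levels are given in CPM, read counts scaled to a common library size with TMM factors, in the order of the replicate numbers. A log2 fold change is day 21 minus day 7, with its standard error (SE), and every value after "rose by" or "fell by" and every signed difference in parentheses is on this log2 scale. A gene was called higher or lower when edgeR's quasi-likelihood test gave a Benjamini-Hochberg adjusted p under 0.05 and the fold change was over 1.5. All adjusted p values below are from that test unless another fit is named. In bulk RNA, fewer cells of a type and less RNA per cell cannot be told apart.

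The 7 libraries held 15944121 to 18020661 counts each. Markers of lung were at high levels in both groups, with 15527, 8181, 16293 and 15692 CPM of Sftpc at day 7 and 2210.4, 4901 and 4008 CPM at day 21, and with Pecam1 between 525 and 719 CPM. A pair of libraries had high levels of cardiac muscle genes, and the source of this RNA was not tested. The summed level of 12 cardiac muscle genes was 728 CPM in D7 replicate 4 and 839 CPM in D21 replicate 1, against 23.4 to 65.0 CPM in the other 5. The summed level of 10 adipocyte genes was 158 CPM in D7 replicate 4 and 4.82 to 33.5 CPM elsewhere. D21 replicate 1 also had the highest summed level of 8 airway basal cell genes, 39.9 CPM against 6.17 to 9.32 CPM. These sums include members that did not pass the filter on low counts. The 16 mitochondrial genes took 2.03% to 2.15% of counts at day 7 and 2.66% to 4.01% at day 21, so that this share separated the groups compared. Across the series it did not follow the day alone. It was 2.28% in D0 replicate 1 and 4.22% in D0 replicate 3. D14 replicate 1 lay within the range of day 7, while D14 replicate 3 had 4.14%. The source of these differences within a day was not tested. The part of the mitochondrial share in the results was not tested beyond a fit with the share as a covariate, whose counts are given beside the lists below where they differ.

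Of the 17457 genes tested, 1665 were called (9.54%), 907 higher at day 21 (5.20%) and 758 lower (4.34%), and the median log2 fold change of all genes was 0.0017. At day 21 a further reading without any test was that 2555 genes (14.6%) had all 3 libraries above all 4 day 7 libraries and 2334 (13.4%) had all 3 below. Matrix, lymphatic, arterial and macrophage genes were among those that rose, and surfactant, airway, alveolar fibroblast and natural killer cell genes among those that fell. A fit with 1 library left out rests on fewer libraries, which alone can end a call. The count changed in such fits. It was 966 without D21 replicate 1, 986 without D7 replicate 1, 1032 without D7 replicate 3 and 1096 without D7 replicate 4, and it was 942 with the mitochondrial share as a covariate, of which 711 were also called in the fit without it. The results were recomputed under 19 alternatives in all, among them other tools, scalings and filters, a stricter test of the fold, the covariate and each library left out.

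**Figure D1:**
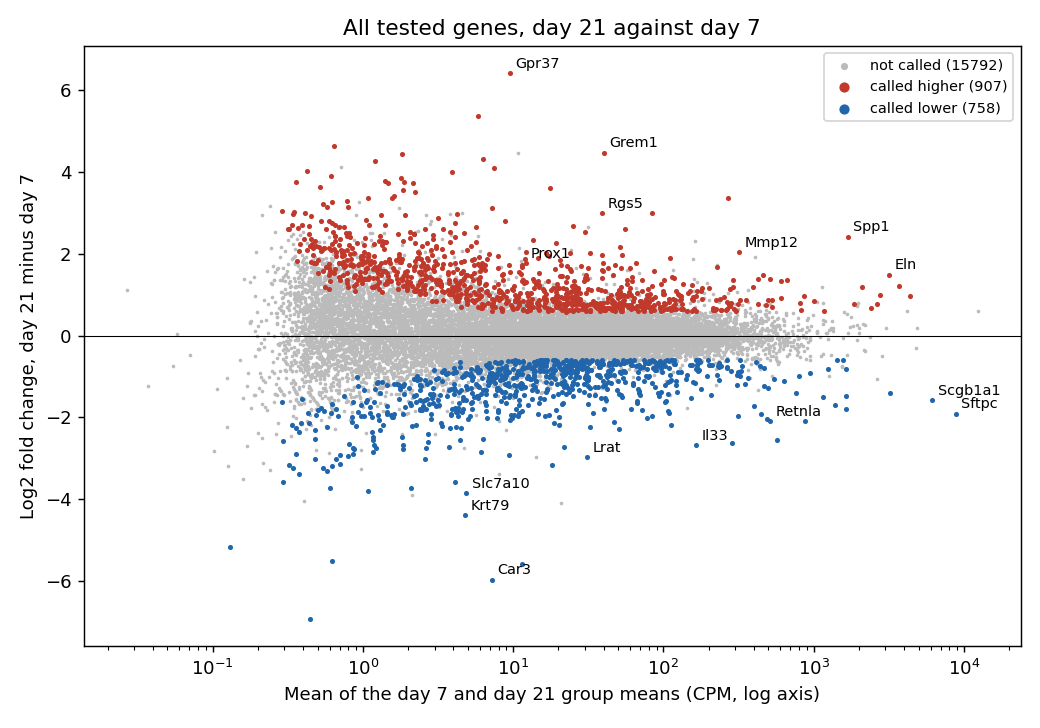
Each point is a tested gene, with the mean of the day 7 and day 21 levels (CPM, log axis) across and the log2 fold change, day 21 minus day 7, upward. Red points are the 907 genes called higher, blue points the 758 called lower, and the labelled Sftpc and Scgb1a1 are abundant genes among those that fell.

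**Figure D2:**
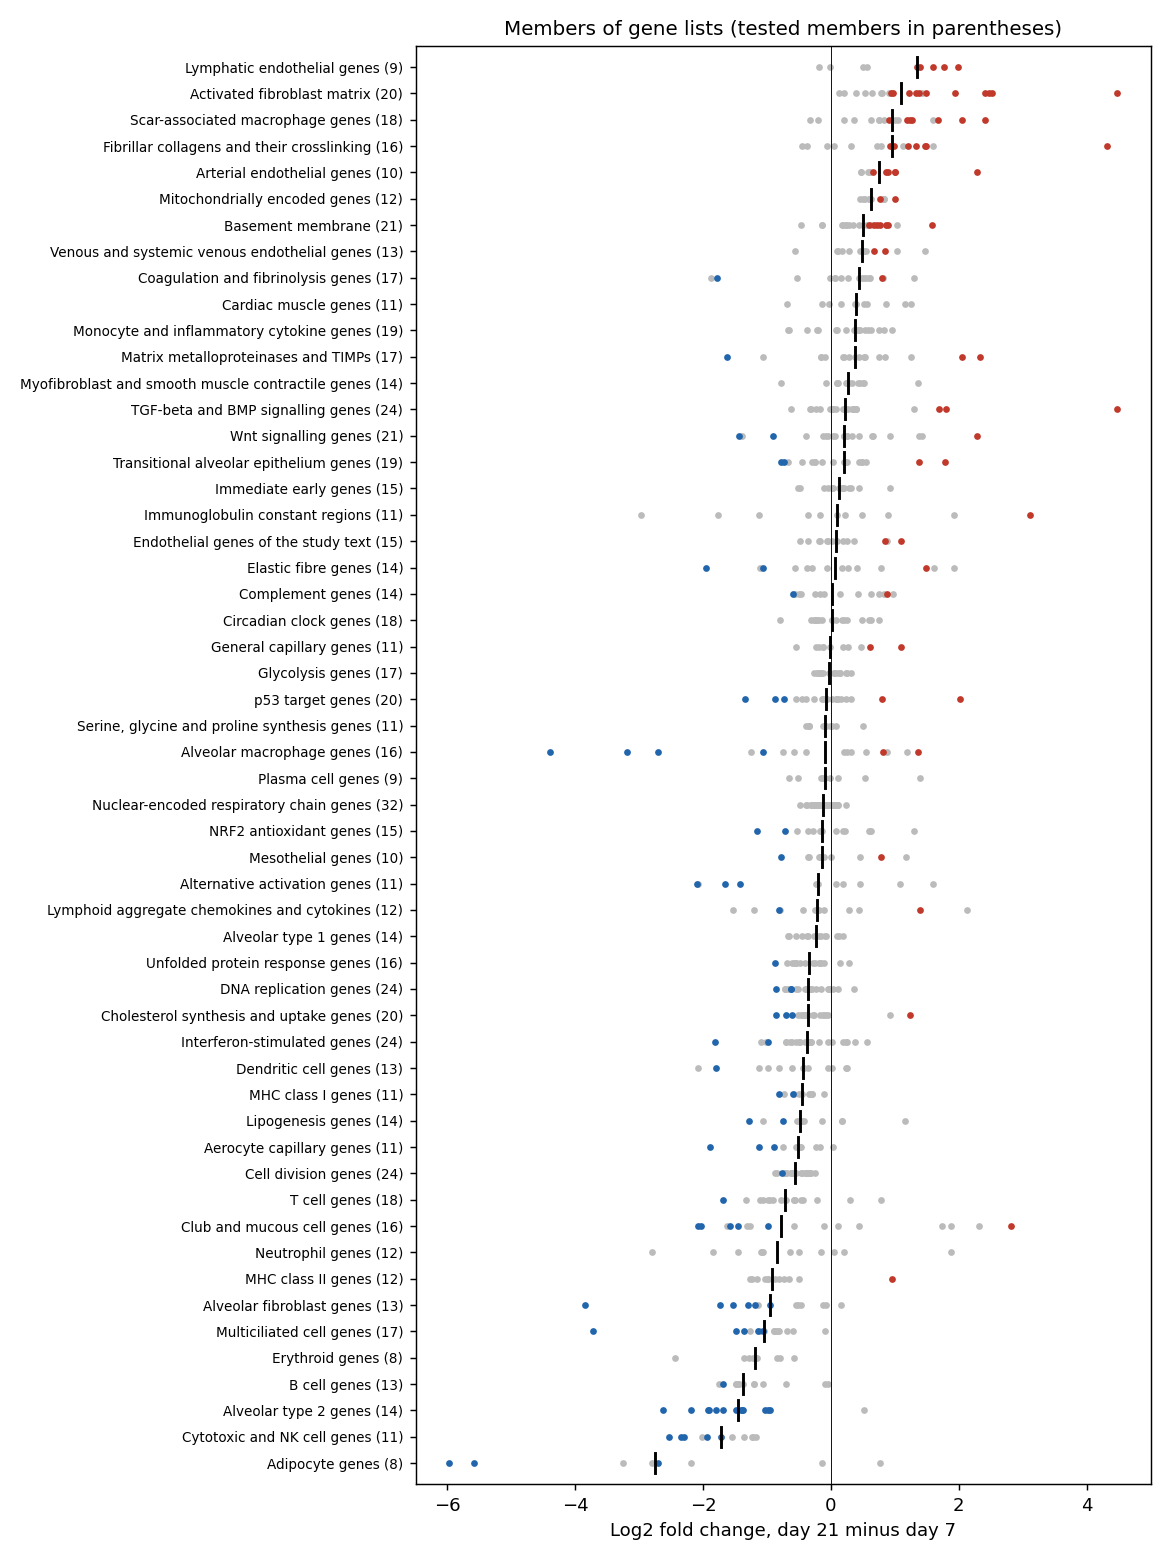
Each row is a gene list with at least 8 tested members, ordered by its median (black bar), and each point is a member's log2 fold change, day 21 minus day 7. Red and blue points were called higher and lower. Lymphatic endothelial genes stand at the top with a median of 1.35, and adipocyte genes at the bottom.

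Many genes of scar-forming fibroblasts rose. Of 20 activated fibroblast matrix genes, 11 were called higher and none lower, with a median log2 fold change of 1.09 and all 20 above 0. Grem1, a secreted antagonist of bone morphogenetic proteins (mm10 chr2:113746164-113758646, minus strand), was at 2.38, 1, 7.13 and 3.33 CPM at day 7 and 112, 13.6 and 106 CPM at day 21. The groups did not overlap, although D21 replicate 2 was far below the other two, and the log2 fold change was 4.48 (SE 0.86, adjusted p = 0.00574). Spp1, which encodes osteopontin (mm10 chr5:104435118-104441050, plus strand), was at 745, 523, 494 and 371 CPM and then 3902, 1286 and 3346 CPM. It rose by 2.42 (SE 0.42, adjusted p = 0.00356), with D21 replicate 2 again the lowest of its day. Thbs2, a matricellular thrombospondin, went from 13.2, 4.85, 9.44 and 7.96 CPM to 77.2, 24.4 and 51.1 CPM, a log2 fold change of 2.52 (SE 0.5, adjusted p = 0.00649). All 3 kept their call in all 19 alternatives. Fibronectin, Fn1, was at 2244, 2482, 1831 and 2295 CPM at day 7 and 5820.04, 3658 and 5925 CPM at day 21, a log2 fold change of 1.21 (SE 0.36, adjusted p = 0.0391). Lrrc15, a marker of myofibroblasts, rose by 2.47 (SE 0.7, adjusted p = 0.0322) at low level. Some calls were lost with 1 library left out. The call of Fn1 was lost without D7 replicate 1, 2, 3 or 4 or D21 replicate 1 or 3 (adjusted p up to 0.122). Its log2 fold change was 1.07 to 1.38 with 1 library left out. The call of Lrrc15 was lost without D7 replicate 1, 2, 3 or 4 or D21 replicate 1 (adjusted p up to 0.174). The list had 5 to 10 members called higher with 1 library left out, 5 without D21 replicate 1 and 6 without any 1 of the 4 day 7 libraries, and 9 with the covariate.

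Several collagen crosslinking genes rose, while the main chains of collagens I and III did not pass the test. Of 16 fibrillar collagen and crosslinking genes, 7 were called higher and none lower, with a median of 0.95. Lox, a lysyl oxidase, was at 315, 517, 226 and 324 CPM at day 7 and 888, 901 and 813 CPM at day 21 (log2 fold change 1.33, SE 0.34, adjusted p = 0.0202). Loxl3, of the same family, went from 16.5, 17.8, 14.5 and 15.6 CPM to 57.1, 34.2 and 44.4 CPM, with no overlap (log2 fold change 1.49, SE 0.27, adjusted p = 0.00399), and kept its call in all 19 alternatives. P4ha3, a collagen prolyl hydroxylase subunit, rose by 1.46 (SE 0.36, adjusted p = 0.0187). Col11a1, a minor fibrillar collagen of cartilage, was at 0.849, 1, 0.274 and 0.238 CPM and then 22.4, 4.04 and 9.4 CPM (log2 fold change 4.31, SE 1.0, adjusted p = 0.0141). Col1a1, the main chain of type I collagen, did not pass the test. It was at 1495, 1283, 1253 and 1710.5 CPM at day 7 and 3299, 1264 and 2878 CPM at day 21, where D21 replicate 2 lay within the range of day 7, for a log2 fold change of 0.79 (SE 0.44, adjusted p = 0.245). Col3a1 had a log2 fold change of 0.05 and Col1a2 of 0.71, and neither was called. The call was lost for Lox without D7 replicate 1, 3 or 4 or D21 replicate 1 or 2 (adjusted p up to 0.0601), P4ha3 without D21 replicate 1 (adjusted p = 0.054) and Col11a1 without D21 replicate 1 (adjusted p = 0.058), and the list had 2 to 6 members called with 1 library left out, 2 without D21 replicate 1 and 4 without D7 replicate 1, 3 or 4, and 6 with the covariate.

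Of 14 elastic fibre genes, 1 was called higher and 2 lower, with a median of 0.06. With the covariate 4 were called higher and 1 lower, without D21 replicate 2 there were 2 called higher, and without D7 replicate 3, D7 replicate 4 or D21 replicate 1 there was 1 called lower. Elastin, Eln, rose from 1973, 1816, 1201 and 1663 CPM at day 7 to 4555, 5867 and 3572 CPM at day 21 (log2 fold change 1.49, SE 0.29, adjusted p = 0.00575). Fbln1, a fibulin of elastic fibres and basement membranes, fell from 136, 82.7, 149 and 167 CPM to 24.3, 40.1 and 38.8 CPM (log2 fold change -1.96, SE 0.28, adjusted p = 0.00132), and the microfibril gene Mfap4 fell with a log2 fold change of -1.06 (SE 0.31, adjusted p = 0.0392). The groups did not overlap in any of these 3 genes. The call was lost for Mfap4 without D7 replicate 1, 3 or 4 or D21 replicate 1 or 2 (adjusted p up to 0.132) or with the covariate (adjusted p = 0.0838).

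Of 21 basement membrane genes, 7 were called higher and none lower, with a median of 0.50. They included the laminin chains Lama1 and Lama5 and the collagen IV chain Col4a2. Lama5 was at 208, 258, 215 and 241 CPM at day 7 and 467, 463 and 331 CPM at day 21 (log2 fold change 0.87, SE 0.14, adjusted p = 0.00243). Col4a2 was at 1315, 1551, 1209 and 1375 CPM and 2314, 2538 and 2128 CPM (log2 fold change 0.77, SE 0.16, adjusted p = 0.00733), and Lama1 rose by 1.58 (SE 0.33, adjusted p = 0.00904). Without D7 replicate 1 or D7 replicate 3 the count was 3, it was 4 without D7 replicate 4 or D21 replicate 3 and 8 with the covariate, and 1 member was called lower without D21 replicate 2. None of 14 contractile genes of myofibroblasts and smooth muscle was called, with a median of 0.26, and 1 was called higher with the covariate. Acta2, smooth muscle actin, was at 337, 291, 278 and 287 CPM at day 7 and 501, 157 and 427 CPM at day 21, so that the groups overlapped (log2 fold change 0.28, SE 0.33, adjusted p = 0.602).

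Several macrophage genes of the scar rose, and 2 matrix proteases with them. Of 18 scar-associated macrophage genes, 7 were called higher and none lower, with a median of 0.96. Spp1 is a member of this list and of the fibroblast list. Mmp12, macrophage elastase, was at 172, 176, 94 and 55.9 CPM at day 7 and 407, 220.4 and 912 CPM at day 21 (log2 fold change 2.04, SE 0.47, adjusted p = 0.0131). Gpnmb, a glycoprotein of lipid-laden macrophages, went from 137, 85.9, 119 and 92.5 CPM to 337, 154 and 548 CPM (log2 fold change 1.67, SE 0.33, adjusted p = 0.00623). Trem2, a lipid-sensing receptor, rose by 1.26 (SE 0.27, adjusted p = 0.00938). In Mmp12 and Gpnmb the highest library was D21 replicate 3 and the lowest of the day was D21 replicate 2. The collagenase Mmp13 was at 5.94, 6.08, 3.62 and 2.32 CPM and then 17.1, 12 and 38.7 CPM (log2 fold change 2.33, SE 0.38, adjusted p = 0.00274) and kept its call in all 19 alternatives. Of 17 matrix metalloproteinase and TIMP genes, Mmp12 and Mmp13 were called higher and Mmp15, a membrane-bound member, lower with a log2 fold change of -1.62 (SE 0.32, adjusted p = 0.00647). The call was lost for Mmp12 without D21 replicate 3 (adjusted p = 0.0633). Of the protease list 3 were called higher with the covariate and 2 lower without D21 replicate 1. The macrophage list had 3 members called without D21 replicate 3 and 4 without D7 replicate 2, D7 replicate 4 or D21 replicate 1, and 8 with the covariate.

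Promoters of Mmp13, Mmp12 and Gpnmb are shown because these genes rose together and each window holds the letters TGACTCA, the consensus of the AP-1 factors, on 1 strand or the other. They were chosen after their values were seen. Among other genes named here, Lrrc15 and Fas, which rose, and Cidec, Rbp4 and Rprml, which fell, also hold these letters. In Gpnmb they lie after the start, from position 9. Each runs from 250 bases before to 50 bases after a RefSeq start (build GRCm38.p6, plus strand), and capitals mark TGACTCA or its reverse complement TGAGTCA, and TATAAA. For Mmp12 the second of 2 starts is shown, since the first holds neither.
Mmp13 (chr9:7272264-7272563): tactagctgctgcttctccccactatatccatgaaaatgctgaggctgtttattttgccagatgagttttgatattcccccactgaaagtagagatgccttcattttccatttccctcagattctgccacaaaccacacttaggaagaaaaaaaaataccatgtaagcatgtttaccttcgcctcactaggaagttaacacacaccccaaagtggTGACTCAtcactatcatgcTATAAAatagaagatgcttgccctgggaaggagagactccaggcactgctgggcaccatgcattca
Mmp12 (chr9:7347124-7347423): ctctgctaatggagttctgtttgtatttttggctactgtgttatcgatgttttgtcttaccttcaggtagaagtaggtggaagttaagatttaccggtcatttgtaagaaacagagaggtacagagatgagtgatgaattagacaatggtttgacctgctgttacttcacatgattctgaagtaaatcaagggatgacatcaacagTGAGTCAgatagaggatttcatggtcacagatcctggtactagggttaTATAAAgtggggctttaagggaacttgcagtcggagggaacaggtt
Gpnmb (chr6:49036268-49036567): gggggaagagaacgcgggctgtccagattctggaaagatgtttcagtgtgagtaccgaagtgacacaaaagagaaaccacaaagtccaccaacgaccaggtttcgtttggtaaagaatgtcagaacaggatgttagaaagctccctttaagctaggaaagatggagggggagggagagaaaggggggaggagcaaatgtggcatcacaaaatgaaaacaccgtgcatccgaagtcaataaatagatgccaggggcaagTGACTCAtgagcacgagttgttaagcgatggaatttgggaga
Across promoters of 12351 tested genes with an entry, TGACTCA stood in 4.16% of 15695, against 5.41% of the 739 promoters of genes called higher and 5.00% of the 720 of genes called lower. TATAAA stood in 8.17% of all, 11.1% of those called higher and 11.9% of those called lower. A match is a description of the letters and shows no binding.

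Other large rises were in genes outside these lists. Rgs5, a regulator of G protein signalling known from pericytes, was at 8.77, 10.7, 8.67 and 6.65 CPM at day 7 and 118, 39.7 and 50.4 CPM at day 21 (log2 fold change 3.0, SE 0.32, adjusted p = 0.000198). Gpr37, an orphan receptor (mm10 chr6:25665878-25690729, minus strand), had the largest rise among the genes ranked, from 0.113, 0.167, 0.0549 and 0.535 CPM to 24.2, 5.69 and 26.6 CPM, a log2 fold change of 6.41 (SE 1.08, adjusted p = 0.00306). The day 7 levels were 2, 3, 1 and 9 reads, so the size of this change, and the rank it gave, rest on a group near 0. Cd177, a surface protein known from neutrophils, rose from 42.3, 28.9, 77.6 and 42.4 CPM to 774, 122 and 576 CPM (log2 fold change 3.36, SE 0.62, adjusted p = 0.00483). None of 12 neutrophil genes was called, with a median of -0.85, and 2 were called lower without D21 replicate 1. The imprinted gene Peg3 rose by 2.99 (SE 0.44, adjusted p = 0.00167), the sodium-activated potassium channel gene Kcnt1 by 4.09 (SE 0.56, adjusted p = 0.00109), and Dnm3os, a noncoding RNA that hosts microRNAs, by 2.68 (SE 0.32, adjusted p = 0.000459). All 6 kept their call in all 19 alternatives. Of 24 TGF-beta and BMP signalling genes, 3 were called higher and none lower. These were Grem1, Nog, another BMP antagonist (1.8, SE 0.5, adjusted p = 0.0289), and Inhba, the activin A subunit (1.7, SE 0.49, adjusted p = 0.0353). The calls were lost for Nog without D7 replicate 2, 3 or 4 or D21 replicate 1 or 2 (adjusted p up to 0.108) and Inhba without D7 replicate 1, 3 or 4 or D21 replicate 1 or 3 (adjusted p up to 0.146), which left 1 member called without D7 replicate 3, D7 replicate 4 or D21 replicate 1, while 5 were called higher with the covariate. Of 21 Wnt genes, the antagonist Dkk2 rose (2.29, SE 0.58, adjusted p = 0.0197) and the inhibitor Wif1 and the ligand Wnt2 fell (-1.43, SE 0.24, adjusted p = 0.00306, and -0.9, SE 0.21, adjusted p = 0.0132). The call was lost for Dkk2 without D21 replicate 3 (adjusted p = 0.0606), and 2 Wnt genes were called higher without D21 replicate 2.

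**Figure D3:**
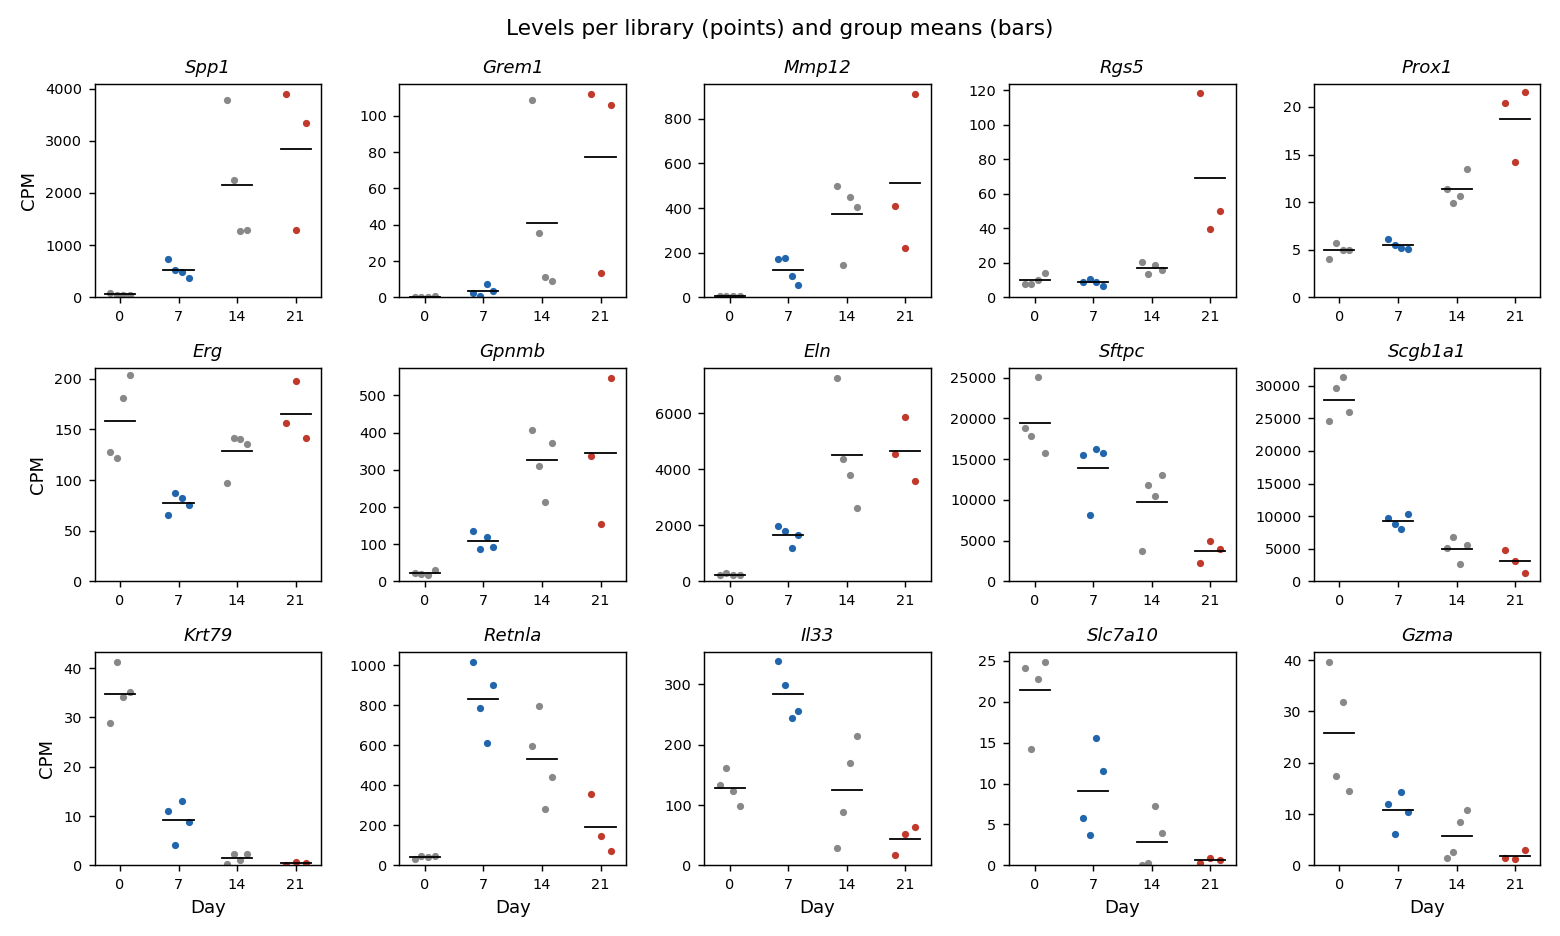
Each panel shows a gene's level in CPM (from 0) in every library at days 0, 7, 14 and 21, with bars at the group means. Blue points are day 7, red points day 21 and grey points the other days. In Prox1, Eln, Sftpc and Krt79 all 3 day 21 libraries lie outside the 4 day 7 libraries.

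Lymphatic endothelial genes rose. Of 9 lymphatic genes, 5 were called higher and none lower, with a median of 1.35, and 5 were called in every fit with 1 library left out and with the covariate. Prox1, the transcription factor that sets lymphatic identity (mm10 chr1:190118035-190170714, minus strand), was at 6.17, 5.52, 5.21 and 5.11 CPM at day 7 and 20.4, 14.2 and 21.6 CPM at day 21. Its log2 fold change was 1.77 (SE 0.18, adjusted p = 9.62e-05). Ccl21a, a chemokine of lymphatic vessels, went from 79.7, 45.3, 75.1 and 58.6 CPM to 169, 154 and 189 CPM (log2 fold change 1.4, SE 0.22, adjusted p = 0.00238). Reln rose by 1.98 (SE 0.24, adjusted p = 0.00043) and Mmrn1 by 1.59 (SE 0.24, adjusted p = 0.00215). Flt4, the receptor for VEGF-C, rose by 1.35 on the log2 scale. The lymphatic genes Lyve1 (0.57) and Pdpn (-0.19), which other cells also express, were not called.

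Of 10 arterial genes, 6 were called higher and none lower, with a median of 0.76. Gja5, connexin 40, was at 66.7, 52.7, 62.3 and 52.4 CPM at day 7 and 108, 99.95 and 118 CPM at day 21 (log2 fold change 0.89, SE 0.18, adjusted p = 0.00647). Unc5b, a guidance receptor, rose by 1.0 (SE 0.16, adjusted p = 0.00252) and the factor Sox17 by 1.0 (SE 0.27, adjusted p = 0.0264). Among 15 endothelial genes taken with the study text in view, Erg and Vwf were called higher and none lower. Erg, an endothelial transcription factor, went from 66, 87.3, 81.9 and 75.9 CPM to 156, 198 and 142 CPM (log2 fold change 1.09, SE 0.19, adjusted p = 0.00356), and Vwf from 607, 775, 636 and 826 CPM to 1178, 1526 and 1148 CPM (0.85, SE 0.18, adjusted p = 0.00974). Pecam1 (-0.18, SE 0.15, adjusted p = 0.462) and Cdh5 (-0.06, SE 0.2, adjusted p = 0.865) did not pass the test. Of 11 aerocyte genes, 3 fell, Rprml, Apln and Cyp4b1, with none called with the covariate or without D21 replicate 1, and 1 without D7 replicate 1 or D7 replicate 3. The arterial count was 3 without D7 replicate 1, D7 replicate 2 or D21 replicate 1, and 3 with the covariate, and the call was lost for Sox17 without D7 replicate 1, 2 or 3 or D21 replicate 1 or 3 (adjusted p up to 0.0799) or with the covariate (adjusted p = 0.219).

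Dot1l, the H3K79 methyltransferase that the study followed, was at 62.4, 69.4, 67.9 and 57.3 CPM at day 7 and 97.1, 98.2 and 91.4 CPM at day 21. The groups did not overlap, and the log2 fold change of 0.57 (SE 0.18, adjusted p = 0.0459) passed the adjusted p but not the fold of 1.5. With the covariate it was 0.26 (adjusted p = 0.356), and with 1 library left out the adjusted p ranged from 0.0594 to 0.126. With the replicate number as a further term in the fit it was 0.61 (adjusted p = 0.0375), which passed both thresholds. None of 7 H3K79 modifier genes was called. Snai1, a transcription factor of mesenchymal transition, had a log2 fold change of 0.14 (SE 0.24, adjusted p = 0.722).

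Surfactant and other type 2 cell genes fell together. Of 14 alveolar type 2 genes, 13 were called lower and none higher, with a median of -1.45, and only Ctsh (0.51) was not called. Sftpc, surfactant protein C, had a log2 fold change of -1.91 (SE 0.4, adjusted p = 0.00915), and D7 replicate 2 was the lowest library of day 7. Lamp3, a protein of lamellar bodies, went from 749, 643, 729 and 718 CPM at day 7 to 54.1, 279 and 228 CPM at day 21, with D21 replicate 1 the lowest (log2 fold change -1.92, SE 0.47, adjusted p = 0.0179). Sftpb fell by 1.41 and Abca3, the lamellar body lipid transporter, fell by 0.96 on the log2 scale. The call was lost for Lamp3 with the covariate (adjusted p = 0.051). The list had 9 to 12 members called lower with 1 library left out and 10 with the covariate, the lowest count without D7 replicate 3 or D7 replicate 4, a change of no more than 1.5 times. None of 14 type 1 genes was called, with a median of -0.23, and Ager, the receptor for glycation end products, had a log2 fold change of -0.37, while 3 type 1 genes were called lower without D21 replicate 2. Of 19 genes of the transitional state between them, the keratins Krt8 (-0.74, SE 0.22, adjusted p = 0.042) and Krt19 (-0.79, SE 0.23, adjusted p = 0.0392) fell, and Ccn2 (1.37, SE 0.36, adjusted p = 0.0242) and Fst (1.78, SE 0.52, adjusted p = 0.036) rose. These calls were lost for Krt8 without D7 replicate 1, 2, 3 or 4 or D21 replicate 1, 2 or 3 (adjusted p up to 0.119) or with the covariate (adjusted p = 0.287), Krt19 without D7 replicate 1, 2 or 3 or D21 replicate 1, 2 or 3 (adjusted p up to 0.111) or with the covariate (adjusted p = 0.213), Ccn2 without D7 replicate 1, 3 or 4 or D21 replicate 1 or 2 (adjusted p up to 0.0692) or with the covariate (adjusted p = 0.149) and Fst without D7 replicate 1, 3 or 4 or D21 replicate 1 or 2 (adjusted p up to 0.172).

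Among the genes with the largest falls were an alarmin and genes of retinol handling. Il33, an alarmin cytokine, was at 338, 299, 243 and 256 CPM at day 7 and 17.8, 52.5 and 62.8 CPM at day 21 (log2 fold change -2.68, SE 0.53, adjusted p = 0.00702). Lrat, which esterifies retinol, went from 37.9, 58, 81.9 and 41.6 CPM to 3.52, 10.9 and 6.35 CPM (log2 fold change -2.98, SE 0.5, adjusted p = 0.00289), and Rbp4, a retinol carrier, from 17.5, 9.7, 17 and 22.3 CPM to 2.59, 2.39 and 1.59 CPM (-2.92, SE 0.31, adjusted p = 0.000179). These 3 kept their call in all 19 alternatives. Chil1, a chitinase-like protein, fell by 2.55 (SE 0.58, adjusted p = 0.0132) and the paraoxonase Pon1 fell by 2.73 (SE 0.49, adjusted p = 0.00418) on the log2 scale.

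Some club and multiciliated cell genes of the airways fell, with 1 library set apart. Scgb1a1, the secretoglobin of club cells, was at 9725, 8835, 8058 and 10286 CPM at day 7 and 4806, 3147 and 1306 CPM at day 21 (log2 fold change -1.58, SE 0.37, adjusted p = 0.0146). Cyp2f2, a club cell cytochrome, went from 693, 677, 769 and 1003 CPM to 299.9, 197 and 78 CPM (log2 fold change -2.04, SE 0.34, adjusted p = 0.00284), and Cbr2 fell by 2.09 on the log2 scale (SE 0.33, adjusted p = 0.00252). In all 3 genes D21 replicate 1 was the highest library of day 21. Of 16 club and mucous cell genes, 5 were called lower and 1 higher, with a median of -0.78, and 11 were called lower without D21 replicate 1. The gene called higher was Agr2, a disulfide isomerase of mucous cells (2.81, SE 0.75, adjusted p = 0.026), and its call did not hold throughout, being lost for Agr2 without D7 replicate 1, 2 or 3 or D21 replicate 1 or 3 (adjusted p up to 0.08). Of 17 multiciliated cell genes, 5 were called lower, with a median of -1.05, and Rsph1, a radial spoke protein, was at 36.8, 27.8, 34.1 and 47.9 CPM and then 20.3, 7 and 12.1 CPM (log2 fold change -1.48, SE 0.35, adjusted p = 0.0154). The count was 11 without D21 replicate 1, 1 without D21 replicate 2, 2 without D7 replicate 4, 3 without D21 replicate 3 and 1 with the covariate, and the call was lost for Rsph1 without D21 replicate 2 (adjusted p = 0.0555) or with the covariate (adjusted p = 0.119). Of 5 airway basal cell genes none was called, and 1 was called lower without D21 replicate 1. D21 replicate 1 also had the highest summed levels of cardiac and basal cell genes, and its part in these counts was not tested further.

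**Figure D4:**
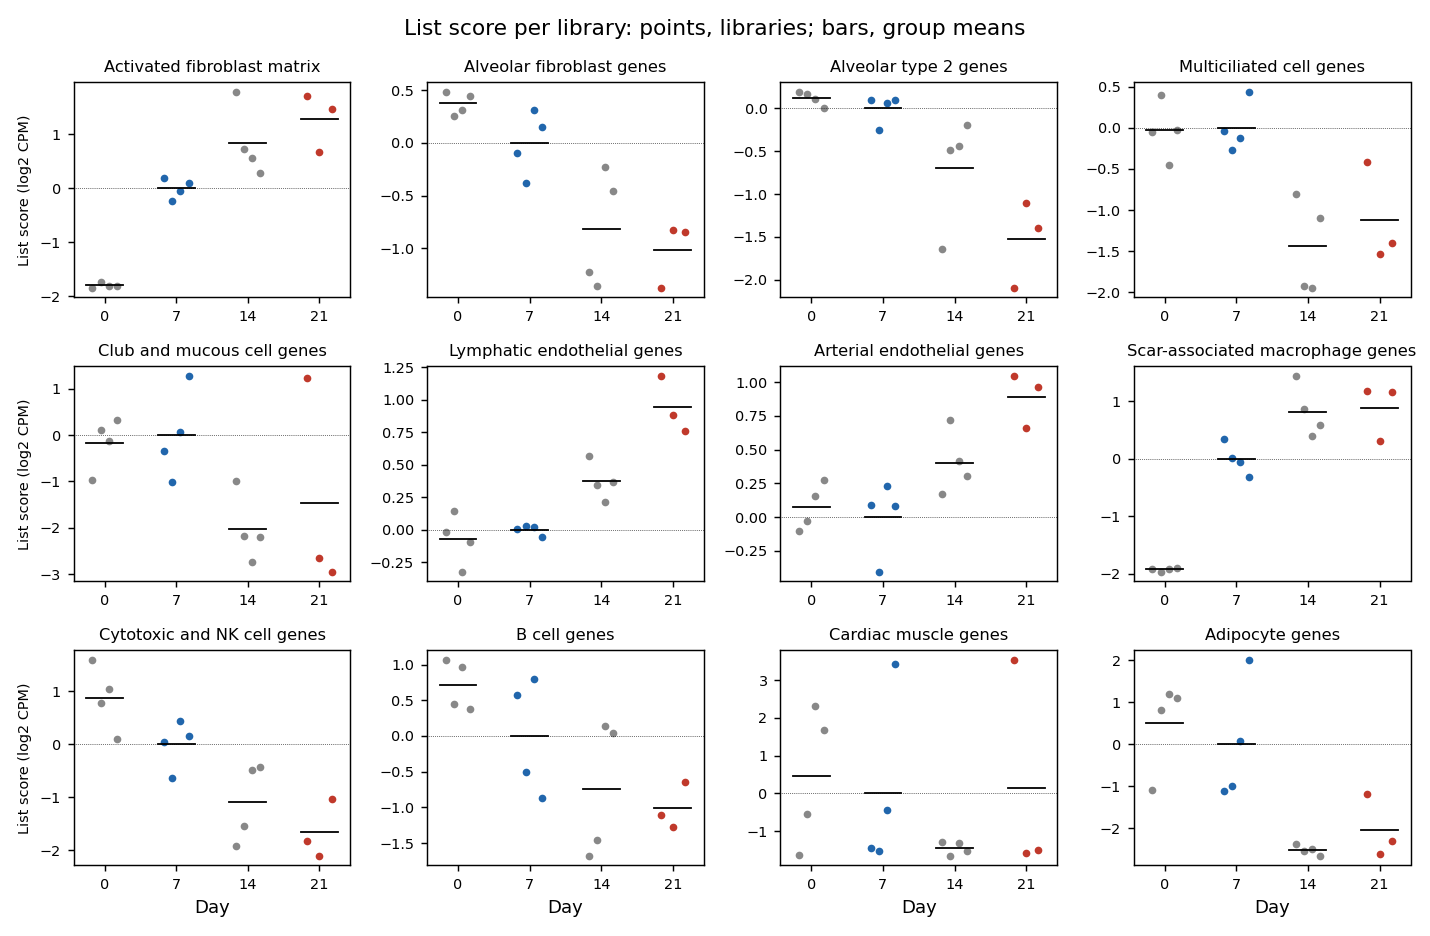
Each panel gives a list's score in every library, averaged over its tested members as log2 CPM relative to the day 7 mean, at days 0, 7, 14 and 21, with bars at the group means (blue, day 7, red, day 21). Lymphatic and fibroblast matrix scores of day 21 lie above those of day 7, alveolar type 2 scores below, and the cardiac score is high in D7 replicate 4 and D21 replicate 1.

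Several genes of alveolar fibroblasts fell. Of 13 alveolar fibroblast genes, 6 were called lower and none higher, with a median of -0.96. Tcf21, a transcription factor of these cells, was at 54, 38.2, 72.8 and 74.4 CPM at day 7 and 14.3, 26.9 and 31.5 CPM at day 21 (log2 fold change -1.3, SE 0.28, adjusted p = 0.0093). Inmt, a methyltransferase, went from 553, 463, 849.97 and 607 CPM to 132, 291 and 136 CPM (log2 fold change -1.73, SE 0.38, adjusted p = 0.0106), and the amino acid transporter Slc7a10 from 5.77, 3.74, 15.5 and 11.5 CPM to 0.247, 0.911 and 0.705 CPM (-3.85, SE 0.98, adjusted p = 0.0205). The count was 3 without D7 replicate 3 or D21 replicate 1 and 4 without D7 replicate 4 or with the covariate, and the call was lost for Slc7a10 without D7 replicate 3 or D21 replicate 1 (adjusted p up to 0.0713). Car3 and Cfd, abundant in fat, had log2 fold changes of -5.97 (SE 1.5, adjusted p = 0.0197) and -5.58 (SE 1.54, adjusted p = 0.0294), with 1.13, 1.78, 7.85 and 45.8 CPM of Car3 at day 7 and 0.494, 0 and 0.176 CPM at day 21. Both sizes rest on a group near 0, since the day 21 libraries held 8, 0 and 3 reads of Car3 and 23, 0 and 0 reads of Cfd. Both are members of the adipocyte list, whose other 6 tested genes summed to 40.6 CPM in D7 replicate 4, the highest library of Car3, and to 4.64 to 16.8 CPM in the other 6 libraries of these days. The calls were lost for Car3 without D7 replicate 4 or D21 replicate 1 or 2 (adjusted p up to 0.0675) and Cfd without D7 replicate 4 or D21 replicate 2 or 3 (adjusted p up to 0.0918), and for both with limma voom.

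Genes of resident alveolar macrophages and of alternative activation, a state driven by type 2 cytokines, included several that fell. Of 16 alveolar macrophage genes, 4 were called lower and 2 higher, with a median of -0.095, 8 above 0 and 8 below. Lpl, a lipase, was among those that rose (1.36, SE 0.25, adjusted p = 0.00474). Krt79 (mm10 chr15:101929332-101940324, minus strand) was at 11, 4.07, 13 and 8.73 CPM at day 7 and 0.124, 0.683 and 0.47 CPM at day 21 (log2 fold change -4.39, SE 0.59, adjusted p = 0.000778, with 2, 12 and 8 reads at day 21), and Cidec, a lipid droplet protein, fell by 2.71 (SE 0.5, adjusted p = 0.00445). Of 11 alternative activation genes, 3 were called lower (Retnla, Ccl17 and Ccl22) and none higher, with a median of -0.21, 5 above 0 and 6 below. Retnla was at 1018, 786, 611 and 904 CPM and then 358, 149 and 73.2 CPM (log2 fold change -2.1, SE 0.44, adjusted p = 0.00871), and the chemokine Ccl17 at 24.4, 23.4, 22.3 and 20.4 CPM and 8.09, 6.6 and 6.82 CPM (-1.66, SE 0.19, adjusted p = 0.000323). Hdc, the histidine decarboxylase of mast cells and basophils, fell from 102, 72.5, 86.7 and 139 CPM to 48.4, 25.1 and 25.1 CPM (-1.61, SE 0.3, adjusted p = 0.00464). Hdc was the only one called of 4 tested mast cell genes, of which 2 were below 0 and 2 above, Cpa3 with 0.07 and Mcpt4 with 2.0 (adjusted p = 0.0706). None of 19 monocyte and inflammatory cytokine genes was called. The call was lost for Ccl22 without D21 replicate 1 or 2 (adjusted p up to 0.0557) or with the covariate (adjusted p = 0.0897), and without D7 replicate 1, D7 replicate 3, D7 replicate 4 or D21 replicate 1, 2 alveolar macrophage genes were called lower, as with the covariate, and 1 was called higher without D21 replicate 3. With the covariate 2 alternative activation genes were called lower and 1 higher, and 2 of the monocyte and cytokine genes were called higher.

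Several genes of cytotoxic lymphocytes fell from low levels. Of 11 cytotoxic and natural killer genes, 5 were called lower and none higher, with a median of -1.72. Gzma, granzyme A, was at 12, 6.19, 14.3 and 10.4 CPM at day 7 and 1.36, 1.2 and 3 CPM at day 21 (log2 fold change -2.53, SE 0.62, adjusted p = 0.0175). Nkg7, a granule protein, fell by 1.93 (SE 0.49, adjusted p = 0.0205). Of 13 B cell genes only Cd79b was called (-1.69, SE 0.44, adjusted p = 0.0232), with a median of -1.38. Of 11 immunoglobulin constant genes, Iglc1 was called higher, at 2.38, 1.06, 2.3 and 0.178 CPM and then 31.1, 3.53 and 4.23 CPM, where D21 replicate 1 stood far above the rest. Calls were lost for Gzma without D21 replicate 1 or 2 (adjusted p up to 0.0628), Nkg7 without D7 replicate 3 or D21 replicate 1 or 2 (adjusted p up to 0.0618) or with the covariate (adjusted p = 0.0818), Cd79b without D7 replicate 1 or 3 or D21 replicate 1 or 2 (adjusted p up to 0.07) or with the covariate (adjusted p = 0.051) and Iglc1 without D7 replicate 1, 2, 3 or 4 or D21 replicate 1 (adjusted p up to 0.355) or with the covariate (adjusted p = 0.0832). Of the B cell genes 3 were called lower without D7 replicate 4 and 2 without D7 replicate 2 or D21 replicate 3, and 1 immunoglobulin gene was called lower without D7 replicate 4. The cytotoxic count was 1 without D21 replicate 1 or D21 replicate 2, 2 without D7 replicate 3, 3 without D7 replicate 1 or D7 replicate 4 8 without D21 replicate 3 and 4 with the covariate. Of 12 MHC class II genes, with a median of -0.93, none was called lower and 1 higher, Ctss, a protease that processes the invariant chain, and 8 were called lower without D21 replicate 3 and 6 without D7 replicate 2. Of 11 MHC class I genes, H2-K1 (-0.81, SE 0.17, adjusted p = 0.0096) and H2-D1 (-0.59, SE 0.16, adjusted p = 0.0268) fell, with 5 called lower without D21 replicate 3, and the call was lost for Ctss without D21 replicate 3 (adjusted p = 0.0654) and H2-D1 without D7 replicate 1, 3 or 4 or D21 replicate 1 or 2 (adjusted p up to 0.0824) or with the covariate (adjusted p = 0.0604).

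A few cell division, stress and metabolic genes were called. Of 24 cell division genes, 1 was called lower, Cdc20, with a median of -0.56 and Mki67 at -0.54. Of 24 DNA replication genes, 3 were called lower (Mcm2, Mcm4 and Mcm7). Without D21 replicate 3 the count was 10 in each list, and the call was lost for Cdc20 without D7 replicate 1 or D21 replicate 2 (adjusted p up to 0.0675) or with the covariate (adjusted p = 0.0911). The DNA replication count was 0 without D21 replicate 1 and with the covariate, and 1 without D7 replicate 1, D7 replicate 3 or D21 replicate 2. Of 20 genes in a list of p53 targets, 3 fell and 2 rose, of which Cdkn2a is better known as a senescence gene upstream of p53 than as its target. Gdf15, a stress cytokine, went from 28.6, 21, 22.9 and 24.3 CPM at day 7 to 7.47, 8.99 and 12.2 CPM at day 21 (log2 fold change -1.34, SE 0.22, adjusted p = 0.00274) and kept its call in all 19 alternatives. Cdkn2a, the locus of the cell cycle inhibitor p16, rose by 2.01 (SE 0.49, adjusted p = 0.0164) from 1.07, 0.725, 0.988 and 0.95 CPM to 4.76, 1.88 and 4.76 CPM, and the death receptor gene Fas rose by 0.8 (SE 0.18, adjusted p = 0.0111). Calls were lost for Cdkn2a without D21 replicate 1 (adjusted p = 0.0595) or with the covariate (adjusted p = 0.0539) and Fas without D21 replicate 1 or 2 (adjusted p up to 0.0584) or with the covariate (adjusted p = 0.061), and with the covariate 2 genes of this list were called lower and 0 higher. Of 14 lipogenesis genes, Fasn (-1.28, SE 0.3, adjusted p = 0.0149) and Acly (-0.75, SE 0.13, adjusted p = 0.00395) fell, with 5 members called lower without D21 replicate 2 and 1 with the covariate, 1 called higher without D7 replicate 4, and the call was lost for Fasn with the covariate (adjusted p = 0.0533). Of 20 cholesterol genes, 3 fell (Idi1, Fdft1 and Srebf2) and 1 rose (Fdps), with 7 called lower without D21 replicate 2, 2 with the covariate and 0 without D21 replicate 1, and Fdps was not called with the covariate or without D7 replicate 1, D7 replicate 3, D7 replicate 4, D21 replicate 1 or D21 replicate 2. The antioxidant genes Cat (-1.15, SE 0.19, adjusted p = 0.00274) and Gstm1 (-0.72, SE 0.15, adjusted p = 0.00718) fell, of 15 in that list, and 1 was called higher without D7 replicate 2. None of 32 nuclear respiratory chain genes and none of 17 glycolysis genes was called, apart from 1 respiratory chain gene called lower without D21 replicate 3. Of 12 mitochondrially encoded genes 2 rose, mt-Nd1 and mt-Nd5, and neither was called without D7 replicate 1, D7 replicate 3, D7 replicate 4, D21 replicate 1 or D21 replicate 2, and only mt-Nd5 without D7 replicate 2. Neither was called with the covariate, which is the share of these same genes and so takes up their change by construction.

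The contrasts with day 0 place these changes. They share the day 0 libraries, so their values are given side by side and not compared. Against day 0, 16.1% of tested genes were called at day 7 and 22.5% at day 21. Without the day 0 library whose treatment label named bleomycin, a fit added after seeing the data, the shares were 12.1% and 20.7%, and the 8 genes below kept their direction and their side of the threshold in both contrasts. On the log2 scale Retnla differed from day 0 by 4.31 at day 7 (adjusted p = 2.48e-05) and 2.21 at day 21 (adjusted p = 0.00112), so that it had risen by day 7 and remained above day 0 at day 21. Gdf15 had 3.94 (adjusted p = 2.23e-07) and 2.6 (adjusted p = 4.45e-06). Spp1 had 3.14 (adjusted p = 0.000148) and 5.55 (adjusted p = 3.13e-06), and was above day 0 on both days. Prox1 had 0.16 (adjusted p = 0.523) and 1.92 (adjusted p = 4.83e-06), with its rise called only at day 21. Erg had -1.03 (adjusted p = 0.000995) at day 7, a fall, and 0.06 (adjusted p = 0.844) at day 21. Sftpc had -0.48 (adjusted p = 0.341) and -2.39 (adjusted p = 0.000583), while the club cell gene Scgb1a1 was already lower at day 7, with -1.59 (adjusted p = 0.00356) and -3.17 (adjusted p = 4.78e-05). Il33 had 1.14 (adjusted p = 0.0766), which did not pass the test, and -1.54 (adjusted p = 0.0324).

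For the genes named, exons of Spp1, Slc7a10, Loxl3, Cyp2f2, Col4a2, Mfap4, Gja5, Abca3, Fdft1, Mcm7, Cdc20 and mt-Nd5 overlap those of another tested gene. The strand setting of the counting was not stated, so reads in the overlaps cannot be assigned with certainty.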

How the data were processed

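RNA-seq counts of whole mouse lungs were analysed for day 21 against day 7 after bleomycin. Per the study's methods and the submitters' processing notes, the authors trimmed reads with TrimGalore, aligned them to mm10 with HISAT2 2.1.0, left out multi-mapped reads and deposited raw counts per gene from HTSeq 0.6.0, with no normalization. The annotation release and strand setting are not given in the sources used here. The table held 33340 genes, 33267 with a GENCODE M21 symbol. Promoters were from RefSeq (GRCm38.p6), for 105 of the 147 genes of the naming rule.

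Counts were tested with edgeR 4.0.16 in R 4.3.3 (TMM, filterByExpr, glmQLFTest) in 1 fit of all 15 libraries with day as the only term, on 17457 genes. The thresholds were those the study used for mouse data. The common biological coefficient of variation was 22.8%. Ranked genes (15 in each direction) averaged 5 CPM or more over the 7 libraries, with no overlap between days, predicted genes and antigen receptor segments left out. Up to 4 genes of each list and the study's genes were also named, some of which are not reported here. The members and lists were chosen with earlier results of these data known. On simulated counts for this comparison, 67 of 100 genes changed 2-fold and 94 of 100 changed 4-fold were recovered (17162 genes). No 2 libraries of a day held identical counts. Alternatives were DESeq2 1.42.0, limma 3.58.1 voom, other scalings and filters, a replicate block, a covariate for the mitochondrial share and leaving out each library, or the day 0 library with conflicting labels.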

Additional observations from a re-analysis of the deposited data

Results flagged for a closer look

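Among the 4 libraries of day 7, 7 of 146 genes and 3 of 58 list scores had 1 library far from the others, judged by the gap to its nearest neighbour over the range of the group. This is 4.9% of the groups examined, and chance gives about 5%. Car3 was at 45.8 CPM in D7 replicate 4, against 1.13 to 7.85 CPM in the other 3. Cfd was at 71.2 CPM in D7 replicate 4, against 2.49 to 12.7 CPM in the other 3. Lama1 was at 5.85 CPM in D7 replicate 2, against 13.6 to 15.03 CPM in the other 3. Sftpc was at 8181 CPM in D7 replicate 2, against 15527 to 16293 CPM in the other 3. Reln was at 19.8 CPM in D7 replicate 2, against 14.1 to 14.8 CPM in the other 3. Klre1 was at 0.669 CPM in D7 replicate 2, against 2.55 to 2.74 CPM in the other 3. Tnnt2 was at 95.9 CPM in D7 replicate 4, against 4.22 to 5.97 CPM in the other 3. The score of alveolar type 2 genes was -0.25 in D7 replicate 2, against 0.06 to 0.10. The score of cell division genes was -0.33 in D7 replicate 2, against 0.09 to 0.14. The score of cholesterol synthesis and uptake genes was 0.18 in D7 replicate 2, against -0.09 to -0.04. Car3, Cfd and Tnnt2 were high in D7 replicate 4, where the other 6 tested adipocyte genes summed to 40.6 CPM (9.09 to 12.8 CPM in D7 replicates 1 to 3) and the other 10 tested heart muscle genes to 631 CPM (26.9 to 60.7 CPM in replicates 1 to 3), and the part of that RNA in their values was not tested.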

How the results depend on the processing

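Of the 127 named genes that were called, 32 kept the call in all 19 alternatives, 1 (Mcidas) kept it in the 18 it entered and 94 lost it in at least 1, 94 with glmTreat and 41 with the mitochondrial covariate. Among genes named above, Col11a1, Lrrc15, Inhba, Agr2, Slc7a10, Car3, Cfd, Cd79b and Iglc1 also lost it with limma voom, and Cfd, Apln, Mcm4, Mcm7 and Fdps with days 7 and 21 alone. H2-D1, close to the fold of 1.5, lost it with DESeq2, limma voom, total count scaling, RLE factors and a mean of at least 1 CPM. The number of genes called was 2229 with DESeq2, 1636 with total count scaling, 1666 with RLE factors, 1669 with limma voom, 1851 without a filter and 1638 with days 7 and 21 alone, against 1665. With glmTreat at a fold of 1.5 it was 176, 89 higher and 87 lower. The mitochondrial covariate left 942, with 483 higher and 459 lower. With 1 library left out it ranged from 966 to 1822, with 385 to 911 higher and 493 to 911 lower; the fewest higher calls came without D21 replicate 1 and the fewest lower calls without D7 replicate 3. Whether the replicate numbers pair the libraries of the 2 days was not settled. The correlations of the deviations were 0.098, 0.21 and 0.063 for libraries of the same number. They were -0.23 to 0.12 for libraries of different numbers, and D7 replicate 1 correlated best with D21 replicate 3. With the replicate block 1651 genes were called, 1413 of them shared with the 1665. Of the named genes 11 lost the call under it, among them Car3, Cfd, Iglc1, Fdps and mt-Nd1, and 2 gained it, Dot1l and Mmp9. The direction of 4 named genes reversed, none of them called. With 1 library left out the log2 fold change ranged from -1.01 to 1.91 for Aqp3, -2.29 to 3.68 for Tnnt2, -0.047 to 0.61 for Acta2 and -0.16 to 0.045 for Cdh5, with the reversals in Aqp3, Tnnt2, Acta2 and Cdh5 without D21 replicate 1 and in Cdh5 also without D7 replicate 4. With the replicate block Cdh5 had 0.0075. The cause of these changes was not tested, and 3 libraries at day 21 limit the precision of every value.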
